A study of Mus musculus with 12 samples.

Results

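The proteasome genes of sorted mouse regulatory T cells were described across 12 RNA-seq libraries. They were taken as every row of the deposited count table whose Ensembl identifier belongs to a protein-coding mouse gene with a symbol of Psm, a letter from a to f and a digit. This gave 45 genes of 21839 in the table, of which 20838 are protein coding. One of the 45, Psmc3ip, fits the pattern by its name but encodes a recombination factor that binds the ATPase Psmc3 and is no proteasome subunit. It was kept in every count below and is named where it sets an extreme.

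Regulatory T cells are CD4 T cells that hold immune responses in check, express the transcription factor Foxp3 and carry CD25, the interleukin-2 receptor chain encoded by Il2ra. All animals were C57BL/6 mice with Atg5, an essential autophagy gene, flanked by loxP sites on both alleles (Atg5 flox/flox). The libraries called TG came from carriers of the CD11c Cre transgene (+/-), and those called WT from littermates without it (-/-), so both genotypes carried the floxed alleles. The CD11c promoter drives Cre mainly in dendritic cells, so the sorted T cells are not the cells in which Atg5 is meant to be removed. CD4+ cells from spleen and from inguinal, cervical and brachial nodes were gated on high or low CD25 and on 1 more surface marker, and the labels name no Foxp3 stain or reporter. Each of the 4 groups (WT High, WT Low, TG High and TG Low) held 3 libraries, numbered 1 to 3. Neither the age of the mice nor separate animals behind the 3 libraries of a group are stated, and the p-values below rest on a spread between libraries that may be technical.

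Total counts ran from 6767828 (TG High replicate 2) to 23942479 per library, and the 45 genes together held 0.657% to 0.797% of them. Levels are given as CPM, the count scaled by the library's TMM-adjusted total. The labelled cell type was checked on Foxp3, which stood at 1412 to 1662 CPM in the CD25 High libraries and at 983 to 1193 CPM in the CD25 Low libraries. Il2ra stood at 1072 to 1309 CPM in CD25 High and at 481 to 734 CPM in CD25 Low, so both genes parted the gates without overlap. Atg5 stood at 32.0 to 41.6 CPM in all 12 libraries. Same-numbered libraries of different groups deviated from their group means together, with correlations of 0.340 to 0.830 over 18 pairs, against -0.688 to 0.197 over 36 pairs of different numbers.

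The proteasome degrades proteins tagged with ubiquitin. Its core is a barrel of outer rings of alpha subunits (Psma genes) and inner rings of beta subunits (Psmb genes), in which 3 beta subunits carry the cutting sites. In cells of the immune system the catalytic subunits encoded by Psmb5, Psmb6 and Psmb7 can be replaced by Psmb8, Psmb9 and Psmb10, which gives the immunoproteasome, known for making peptides for MHC class I. The regulatory particle binds and unfolds the substrate with ATPases (Psmc genes) and non-ATPase subunits (Psmd genes). Other caps can take its place, among them PA28 alpha and beta (Psme1 and Psme2), PA28 gamma (Psme3) and PA200 (Psme4), while Psmf1 encodes the inhibitor PI31.

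Of the 45 genes, 43 passed the filter on low counts. Both that did not pass are core subunits known from single tissues. Psmb11, the catalytic subunit of the thymic epithelium, had 2 counts over all 12 libraries, 1 each in WT High replicate 1 and TG High replicate 1. Psma8, an alpha subunit of the testis, had 26 counts spread over 8 libraries, with at most 8 in one library. Neither was tested.

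**Figure D1:**
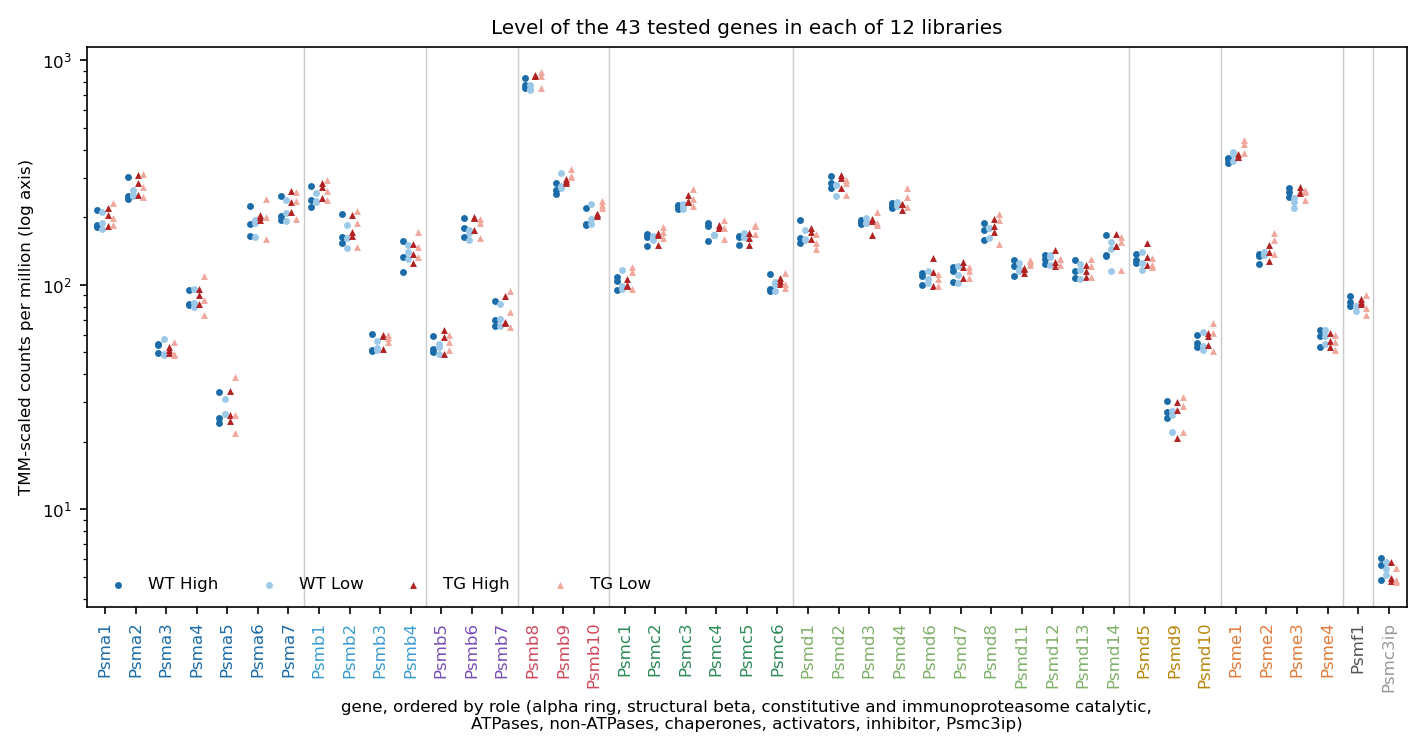
TMM-scaled CPM (log axis) of the 43 tested genes in each library, with genes ordered by role along the horizontal axis and 1 point per library, coloured by group. The 4 groups lie on top of each other for nearly every gene, Psmb8 is highest with a mean of 806 CPM and Psmc3ip lowest with 5.29 CPM.

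Psmb8, which encodes the chymotrypsin-like subunit of the immunoproteasome, was the most abundant transcript of the set. Psmb8 stood at 833, 778 and 749 CPM in WT High replicates 1, 2 and 3, at 745, 775 and 737 in WT Low, at 864, 849 and 853 in TG High and at 850, 753 and 882 in TG Low. The TG High values lay above the WT High values, while the Low groups overlapped. Its constitutive counterpart Psmb5 stood at 59.0, 51.7 and 50.4 CPM in WT High, at 54.5, 53.1 and 49.4 in WT Low, at 58.7, 63.1 and 49.4 in TG High and at 60.0, 55.8 and 51.4 in TG Low. All 4 groups overlapped for Psmb5. Per kb of merged exon length, Psmb8 reached 238 ± 16.0 CPM (SD, n = 12) and Psmb5 60.9 ± 5.10 CPM.

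Psmb9, the immunoproteasome subunit that replaces the caspase-like Psmb6, stood at 265, 285 and 254 CPM in WT High, at 276, 313 and 270 in WT Low, at 289, 295 and 283 in TG High and at 329, 303 and 304 in TG Low. Psmb6 stood at 198, 164 and 178 CPM in WT High, at 176, 159 and 170 in WT Low, at 201, 198 and 175 in TG High and at 189, 162 and 196 in TG Low. For Psmb9 the TG Low values lay above all 3 TG High values, and for Psmb6 the groups overlapped. Psmb10, which replaces the trypsin-like Psmb7, stood at 187, 219 and 185 CPM in WT High, at 196, 229 and 186 in WT Low, at 207, 206 and 203 in TG High and at 226, 220 and 236 in TG Low. Psmb7 stood at 84.6, 69.4 and 65.6 CPM in WT High, at 82.1, 70.3 and 65.5 in WT Low, at 89.6, 67.7 and 68.0 in TG High and at 93.9, 65.2 and 76.0 in TG Low. The library numbered 1 was the highest of its group for Psmb7 in all 4 groups, and TG Low lay above TG High for Psmb10.

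Psmb8 and the PA28 alpha gene Psme1 had the highest levels per kb of the set, and Psma5 differed most between replicate numbers. The promoters of these genes and of Psmb5, the constitutive counterpart of Psmb8, are shown. They come from RefSeq on build GRCm38.p6, run from 250 bases before to 50 bases after the annotated start, and read 5′ to 3′ on the gene's strand. Capitals mark a match to one of 2 motifs searched on both strands, TGACNNNGC (the core of the antioxidant response element, which NRF1, encoded by Nfe2l1, is known to use at proteasome promoters) and GAAA followed after any 2 bases by a further GAAA (the core of the interferon response element that IRF factors bind).
Psmb5: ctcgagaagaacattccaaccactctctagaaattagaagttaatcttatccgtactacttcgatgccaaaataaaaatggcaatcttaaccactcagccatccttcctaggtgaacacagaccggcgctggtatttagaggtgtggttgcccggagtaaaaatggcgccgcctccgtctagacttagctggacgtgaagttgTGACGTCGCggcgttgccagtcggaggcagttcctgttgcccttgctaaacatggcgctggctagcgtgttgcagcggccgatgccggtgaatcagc
Psmb8: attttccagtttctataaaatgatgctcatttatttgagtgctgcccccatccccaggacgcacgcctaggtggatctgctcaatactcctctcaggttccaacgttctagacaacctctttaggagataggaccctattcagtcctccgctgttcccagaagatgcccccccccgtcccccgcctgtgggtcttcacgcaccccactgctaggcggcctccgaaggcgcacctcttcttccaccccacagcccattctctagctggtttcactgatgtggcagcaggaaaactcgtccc
Psme1: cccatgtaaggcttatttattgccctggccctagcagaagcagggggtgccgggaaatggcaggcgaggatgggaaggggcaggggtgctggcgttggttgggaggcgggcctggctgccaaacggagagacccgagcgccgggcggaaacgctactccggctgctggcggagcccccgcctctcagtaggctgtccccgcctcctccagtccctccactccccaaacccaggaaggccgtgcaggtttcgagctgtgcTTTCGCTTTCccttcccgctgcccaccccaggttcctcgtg
Psma5: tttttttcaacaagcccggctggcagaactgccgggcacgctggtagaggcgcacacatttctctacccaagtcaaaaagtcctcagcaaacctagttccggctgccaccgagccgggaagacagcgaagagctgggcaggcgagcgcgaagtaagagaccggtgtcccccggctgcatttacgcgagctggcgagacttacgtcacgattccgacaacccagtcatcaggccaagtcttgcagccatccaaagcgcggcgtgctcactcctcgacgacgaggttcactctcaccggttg
The windows lie at chr14:54617946-54618245 (- strand) for Psmb5, at chr17:34197945-34198244 (+ strand) for Psmb8, at chr14:55578244-55578543 (+ strand) for Psme1 and at chr3:108256676-108256975 (+ strand) for Psma5. The Psmb5 match is to the first motif and begins 47 bases before the start, and the Psme1 match is to the second motif on the other strand and begins 9 bases after it. The Psmb8 and Psma5 windows hold neither set of letters. GENCODE, the annotation used for the lengths, starts Psmb8 at chr17:34197721 and Psme1 at chr14:55578123, both before the window shown. The bases before these windows were not searched. Promoters were matched for 38 of the 45 genes. The first motif was found in 6 of these 38 (15.8%), namely Psmb5, Psmb6, Psmc6, Psmd9, Psmd12 and Psme4, against 14% of the 27025 genes in the RefSeq promoter table. The second was found in 4 of 38 (10.5%), namely Psmb3, Psmd4, Psmd9 and Psme1, against 3.99% of all genes. These are letter matches, not measured binding sites, and of the genes that hold one only Psmd9 passed a test below.

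The activators covered a wide range of levels. Psme1 stood at 364, 366 and 349 CPM in WT High, at 382, 392 and 355 in WT Low, at 369, 372 and 381 in TG High and at 443, 385 and 423 in TG Low. Psme2 stood at 135, 137 and 124 CPM in WT High, at 140, 136 and 136 in WT Low, at 150, 127 and 141 in TG High and at 170, 137 and 158 in TG Low. For Psme1 TG Low lay above TG High and TG High above WT High, both with narrow gaps, while the Low groups overlapped. For Psme2 the groups overlapped. Psme3 stood at 270, 259 and 245 CPM in WT High, at 244, 233 and 221 in WT Low, at 272, 260 and 256 in TG High and at 265, 239 and 259 in TG Low. Psme4 stood at 52.7, 63.1 and 59.1 CPM in WT High, at 54.7, 63.2 and 59.2 in WT Low, at 56.3, 61.1 and 52.9 in TG High and at 60.0, 55.8 and 51.2 in TG Low. For Psme3 the WT High values lay just above the WT Low values, while the TG gates overlapped, and for Psme4 all groups overlapped. The inhibitor gene Psmf1 stood at 84.2, 89.3 and 80.2 CPM in WT High, at 76.6, 80.3 and 80.8 in WT Low, at 83.5, 86.0 and 82.0 in TG High and at 73.1, 78.96 and 90.4 in TG Low.

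Levels of different genes were compared per kb. Psmb8 ranked first and Psme1 second whether levels were divided by merged exon length, by the longest coding length or by the length of the principal transcript, the last chosen after the data were seen. Below these the order depended on the length used, and 6 of the 10 highest genes by exon length were among the 10 highest by coding length. By exon length the median was 67.1 CPM per kb for the 7 alpha genes, 63.7 for the 4 structural beta genes, 60.9 for the 3 constitutive catalytic genes and 122 for the 3 immunoproteasome genes. It was 67.5 for the 6 ATPases, 48.9 for the 11 non-ATPase subunits and 17.9 for Psmd5, Psmd9 and Psmd10, which chaperone the assembly of the regulatory particle. The level of Psmb8 over Psmb5 was 3.92-fold per kb of exon length, 14.1-fold by coding length and 8.14-fold by principal transcript. Psmb10 over Psmb7 was 5.61-fold, 2.84-fold and 2.47-fold by the same lengths. Psmb9 over Psmb6 was 0.819-fold, 1.74-fold and 0.945-fold, so which of them is the more abundant could not be set without knowing the transcript in use.

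Near-identical copies could touch these levels. A copy of at least 95% identity over at least 50% of the coding sequence was found in the annotation for 9 of the 45 genes, namely Psma3, Psma4, Psma5, Psmb3, Psmb5, Psmc1, Psmd2, Psmd11 and Psme2, and the counting could have dropped or split reads that fit both. Over all tested genes but Psmc3ip, the 9 with a copy had a median of 37.0 CPM per kb of exon length and the 33 without had 58.5. The ranges overlapped, at 13.3 to 79.8 with a copy and 3.68 to 238 without. Among the alpha, structural beta and constitutive catalytic genes alone, which leaves out Psmc1, Psmd2, Psmd11 and Psme2, the 5 with a copy had a median of 24.1 CPM per kb of exon length and the 9 without a copy had 72.8. By coding length these medians were 69.1 and 263, and by principal transcript 60.9 and 165. Since the settings of the counting are not given, the levels of all 9 genes with a copy, and with them the Psmb8 to Psmb5 ratio, are uncertain. The part of the copies in the low values was not tested. For Psma5 a copy in the table, Gm8394 with 98.9% identity, held 45 counts over all libraries.

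The set varied little between libraries. The median coefficient of variation over the 12 libraries was 8.30% for the 43 genes, against 13.6% for all 11766 genes tested and 10.3% for the 6510 tested genes in the same range of CPM (the range taken without Psmc3ip). It was lowest for Psmd12, a scaffold subunit of the lid, at 4.98% and highest for Psma5, an alpha ring subunit, at 17.4%.

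Whether proteasome genes differ between the CD25 High and CD25 Low libraries was asked in each genotype and over both. Averaged over genotypes, the log2 difference of High minus Low had a median of 0.008 over the 43 genes, against 0.000 over all genes tested, and ran from -0.11 for Psme1 to 0.098 for Psme3. It was positive for 24 of 43. The widest 95% intervals reached from -0.34 (Psma5) to 0.33 (Psmc3ip), so differences beyond 0.788-fold and 1.25-fold lay outside the interval of every gene of the set.

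No proteasome gene passed an adjusted p of 0.05 in edgeR's quasi-likelihood test between the gates. The share of all genes that passed was 0.0510% in WT, 0.00850% in TG and 0.518% over both genotypes. At an unadjusted p of 0.05 the set again held 0 of 43 in each, against 3.32%, 4.91% and 8.68% of all genes. With the replicate number as a block the shares of all genes at the adjusted threshold were 1.63%, 1.68% and 5.88%, still with 0 of the 43. At the unadjusted threshold the block gave 1, 1 and 0 genes of the set against 9.22%, 12.2% and 18.2% of all genes. The single gene in WT was Psme3 (log2 0.15, adjusted p = 0.526 in the edgeR fit with the block), and in TG it was the ATPase Psmc5 (log2 -0.16, adjusted p = 0.409 in the same fit). DESeq2 called 0 of the 43 and 0.374%, 0.493% and 2.17% of all genes. Among the roles, the median difference over both genotypes ran from -0.096 for the immunoproteasome genes to 0.033 for the constitutive catalytic genes and for the chaperones, apart from 0.073 for the single inhibitor gene. With the block, 5 of 10 CD8 or NK markers (median log2 -1.256) and 3 of 8 myeloid or dendritic markers (median -1.083) were called lower in High over both genotypes. Called higher were 3 of 8 CD4 and Treg markers, 1 of 18 cell cycle genes and 1 of 5 naive or resting genes, and no B cell marker was called. Without the block only 2 CD4 and Treg markers were called, both higher. The summed level of the 13 myeloid or dendritic markers ran from 10.7 to 43.1 CPM in High and from 9.06 to 152 CPM in Low. In the libraries numbered 2 and 3 of both gates it was at most 18.8 CPM, so the higher Low values came from libraries numbered 1. The part of these markers in the proteasome values was not tested.

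**Figure D2:**
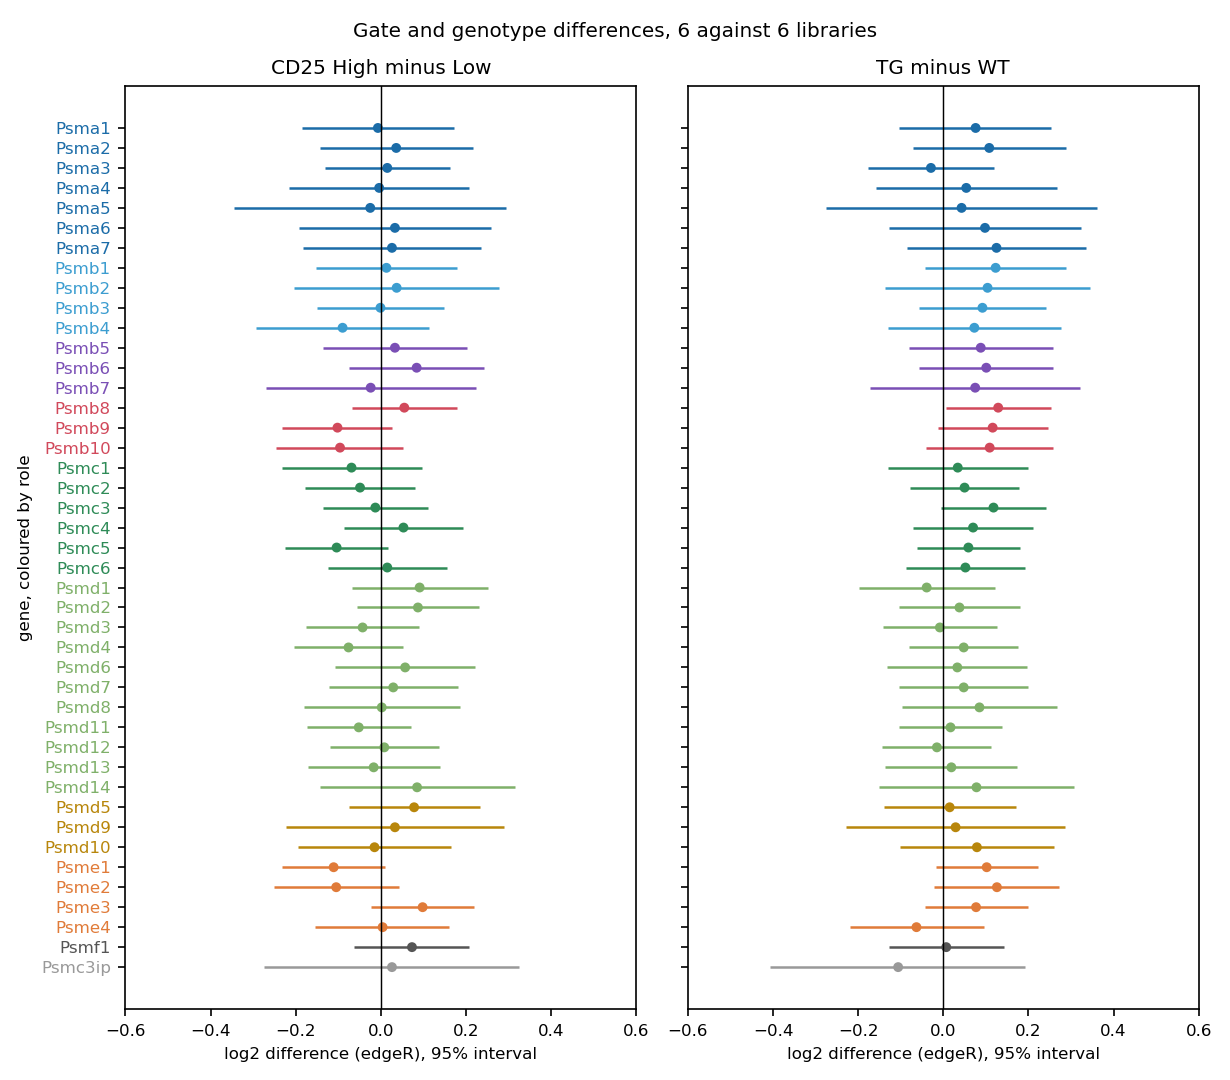
Log2 differences of CD25 High minus Low over both genotypes (left) and of TG minus WT over both gates (right) for each tested gene, 6 against 6 libraries, with points for the edgeR estimate, lines for its 95% interval and colours for the role. Left, the points scatter on both sides of 0 between -0.11 and 0.098, and right, 37 of 43 lie above 0, with 1 interval, that of Psmb8, clear of 0.

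The genotype comparison asks whether autophagy in dendritic cells bears on the RNA of these T cells. Averaged over gates, 37 of 43 genes had a positive log2 difference of TG minus WT, against 52.8% of all genes tested. The median was 0.070 against 0.007 over all genes, the range was -0.11 (Psmc3ip) to 0.13 (Psmb8), and the 95% intervals reached from -0.41 (Psmc3ip) to 0.36 (Psma5), or 0.755-fold to 1.28-fold. In the CD25 Low gate 36 were positive with a median of 0.092, and in CD25 High 32 with a median of 0.050.

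None of these differences passed the adjusted threshold in edgeR. The share of all genes that passed was 0% in CD25 High, in CD25 Low and over both gates, and with the block it was 0%, 0% and 0.0510%. At the unadjusted threshold the set held 0 genes in CD25 High, 0 in CD25 Low and 1 over both gates, against 0.841%, 0.408% and 1.39% of all genes. The 1 gene was Psmb8 (log2 0.13, SE 0.056, unadjusted p = 0.0400, adjusted p = 1.00 in edgeR). With the block these counts were 0, 0 and 5, against 3.55%, 3.25% and 6.64%, and the 5 genes were Psmb8, Psmb9, Psmb1, Psmc3 and Psma7, with adjusted p in edgeR from 0.664 to 0.717. DESeq2 called 0 of the 43 in each of the 3 comparisons, against 0%, 0% and 0.00850% of all genes.

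The immunoproteasome genes had the largest median difference of TG minus WT among the role groups, 0.12 over 3 genes, then the structural beta genes with 0.098, the activators with 0.090 and the constitutive catalytic genes with 0.088. It was 0.033 for the 11 non-ATPase subunits. Differences between roles were not tested. The summed level of 10 B cell markers ran from 365 to 892 CPM in WT and from 453 to 1113 CPM in TG, with 10 of 10 positive and none called in edgeR. Also with none called, 18 of 18 cell cycle genes, 7 of 8 tested myeloid or dendritic markers and 7 of 8 CD4 and Treg markers were positive, against 5 of 10 CD8 or NK markers and 1 of 5 genes of naive or resting T cells. Their part in the proteasome values was not tested, and in bulk RNA fewer cells of a type and less RNA per cell cannot be told apart.

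The genotype effect was also compared between the gates. The difference of the effects had a median of -0.032 over the 43 genes and ran from -0.20 for the chaperone gene Psmd9 to 0.12 for the lid subunit gene Psmd6. In edgeR 0 of 43 passed at the adjusted threshold against 0% of all genes, also with the block, and 0 of 43 at the unadjusted threshold against 0.229% of all genes and, with the block, 1.00%. DESeq2 called 0 of 43 against 0%.

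The replicate number was the factor for which genes of the set passed a test. With the 4 groups held constant, 12 of 43 (27.9%) were higher in the libraries numbered 1 than in those numbered 2 and 3, and 0 were lower, by edgeR at an adjusted p of 0.05. Of all genes tested 27.5% differed, 16.8% higher and 10.7% lower. The log2 difference was positive for 38 of 43, with a median of 0.11 against -0.009 over all genes. Without WT High replicate 1 or without TG Low replicate 1 the count was 6, and without TG High replicate 3 it was 7. What the number marks (an animal, a pool or a day) is not given in the sources used here.

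**Figure D3:**
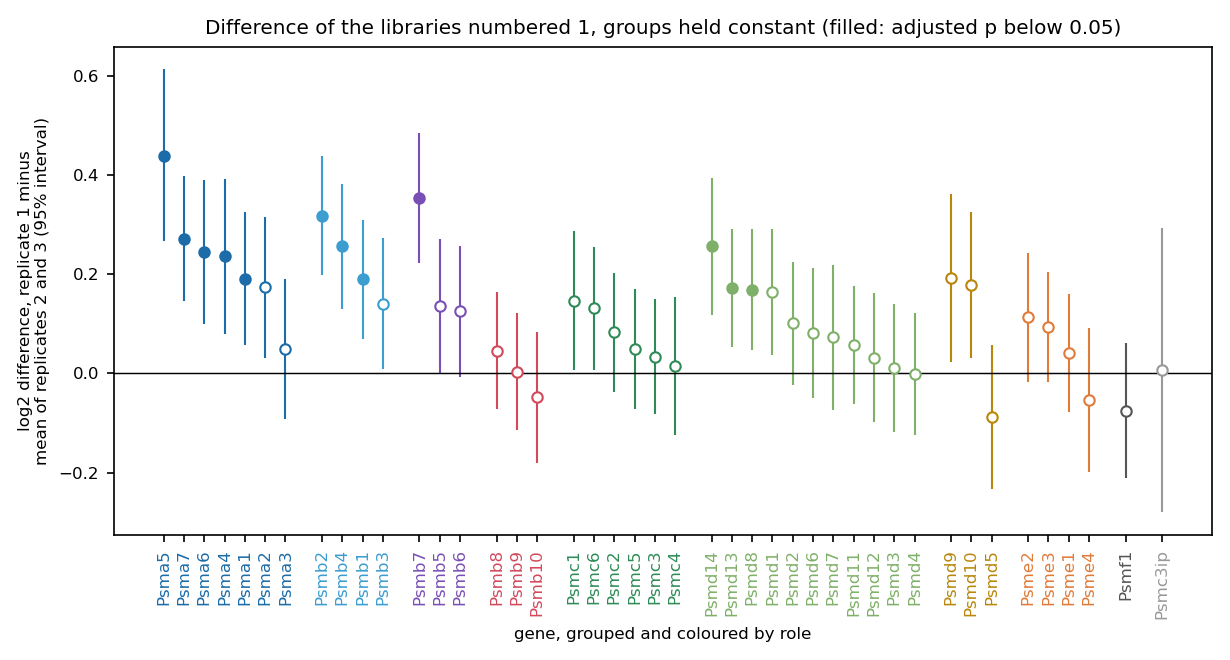
Log2 difference of the libraries numbered 1 minus the mean of those numbered 2 and 3, groups held constant, for each tested gene, grouped and coloured by role, with 95% intervals and filled points for an adjusted p below 0.05. The filled points are alpha, structural beta and non-ATPase genes and Psmb7, led by Psma5 at 0.44, and the 3 immunoproteasome genes lie between -0.048 and 0.046.

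By role, 5 of 7 alpha genes rose, as did 3 of 4 structural beta genes, 1 of 3 constitutive catalytic genes and 3 of 11 non-ATPase subunits. None of the 3 immunoproteasome genes, 6 ATPases, 3 chaperones or 4 activators passed, nor did Psmf1. The largest change was that of Psma5, at 33.4, 24.3 and 25.5 CPM in WT High replicates 1, 2 and 3, at 31.0, 26.5 and 26.5 in WT Low, at 33.7, 24.6 and 26.3 in TG High and at 38.8, 22.0 and 26.4 in TG Low. All 4 libraries numbered 1 lay above the other 8. The log2 difference was 0.44 (SE 0.082, adjusted p = 0.000767 in edgeR), a 1.36-fold change.

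Psmb7, whose values are given above, was higher by 0.35 on the log2 scale (SE 0.062, adjusted p = 0.000429 in edgeR). Psmb7 shares 11.8% of its exon length with Nek6 on the opposite strand, which these libraries do not tell apart. Nek6 itself had a mean of 1.38 CPM and was higher in replicate 1 by 2.03 on the log2 scale (adjusted p = 1.74e-05 in edgeR). Of the other genes called, Psmd13 shares 10.1% of its exon length with Sirt3 and Psma4 4.81% with AY074887, likewise on the opposite strand. Sirt3 (mean 7.07 CPM, log2 0.117) and AY074887 (mean 0.446 CPM, log2 -0.171) did not pass. Psmb2, a structural beta subunit, stood at 207, 154 and 164 CPM in WT High, at 184, 146 and 162 in WT Low, at 205, 165 and 172 in TG High and at 213, 148 and 189 in TG Low. The library numbered 1 was the highest in each group, though TG Low replicate 3 reached into the range of the libraries numbered 1. The log2 difference of Psmb2 was 0.32 (SE 0.057, adjusted p = 0.000513 in edgeR).

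Psmd14 encodes the deubiquitinase of the lid, which removes the ubiquitin chain from a substrate as it enters. Psmd14 stood at 167, 134 and 136 CPM in WT High, at 155, 115 and 145 in WT Low, at 168, 149 and 149 in TG High and at 164, 116 and 155 in TG Low. Here too the 4 libraries numbered 1 were the highest, by a log2 difference of 0.26 (SE 0.065, adjusted p = 0.00806 in edgeR). The other genes that rose were the alpha genes Psma7 (0.27), Psma6 (0.24), Psma4 (0.24) and Psma1 (0.19), the structural beta genes Psmb4 (0.26) and Psmb1 (0.19), and the lid genes Psmd13 (0.17) and Psmd8 (0.17), all as log2 differences. All 4 libraries numbered 1 exceeded all other 8 for Psma5, Psma7, Psmb4, Psmb7, Psmd13 and Psmd14, that is for 6 of 43 genes, against 8.99% of all genes tested. With each of the 12 libraries left out in turn, 6 of the 12 genes stayed past the threshold every time, namely Psma5, Psma7, Psmb2, Psmb4, Psmb7 and Psmd14, with adjusted p in edgeR of at most 0.0411. The other 6, Psma1, Psma4, Psma6, Psmb1, Psmd8 and Psmd13, lost it without at least 1 library, 9 times of 12 for Psmd8 and 2 times for Psma6.

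No gene of the remaining roles passed. Among the chaperones the difference was 0.19 for Psmd9 (adjusted p = 0.0874 in edgeR) and 0.18 for Psmd10 (adjusted p = 0.0683), as large as for some genes that passed, and -0.088 for Psmd5. Psmc1, an ATPase of the base, stood at 109, 104 and 94.6 CPM in WT High, at 117, 96.2 and 98.8 in WT Low, at 106, 99.6 and 98.4 in TG High and at 115, 95.7 and 120 in TG Low. The libraries numbered 1 overlapped the others through TG Low replicate 3, and Psmc1 did not pass (log2 0.15, adjusted p = 0.112 in edgeR). The immunoproteasome gene farthest from 0 was Psmb10, with a log2 difference of -0.048 and an adjusted p of 0.611 in edgeR. Psmb8 differed by 0.046 with a 95% interval of -0.072 to 0.16, and Psmb9 by 0.003 with an interval of -0.11 to 0.12. Of the 3 constitutive catalytic genes only Psmb7 passed, and their differences ran from 0.125 to 0.353 with a median of 0.135. The roles were not tested against each other. Among the activators the difference was 0.11 for Psme2, 0.093 for Psme3, 0.041 for Psme1 and -0.053 for Psme4, and for Psmf1 it was -0.075, none past the threshold.

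Between the numbers 2 and 3, 1 gene of 43 passed, against 12.4% of all genes (5.99% lower in replicate 2). This was Psmd9, which chaperones the assembly of the ATPase ring. Psmd9 stood at 30.4, 25.4 and 27.1 CPM in WT High, at 26.3, 22.0 and 27.3 in WT Low, at 27.7, 20.8 and 30.0 in TG High and at 31.6, 22.1 and 29.0 in TG Low. The library numbered 2 was the lowest in each group, with a log2 difference from replicate 3 of -0.32 (adjusted p = 0.0361 in edgeR). Without any one of WT High 1, WT Low 2, WT Low 3, TG High 3, TG Low 2 or TG Low 3, no gene of the set was lower, and without TG High 2 there were 2.

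Transcripts of other cell types and of the cell cycle also differed with the replicate number. The summed level of the 18 cell cycle genes was 729 to 1155 CPM in the libraries numbered 1 and 335 to 404 CPM in the others, with 18 of 18 called higher in edgeR. For the 10 B cell markers the sums were 725 to 1113 and 365 to 594 CPM, with 10 of 10 called. For the 13 myeloid or dendritic markers they were 20.4 to 152 and 9.06 to 18.8 CPM, with 6 of 8 tested genes called, and Itgax and Siglech were at 0 in all libraries numbered 3. The 10 CD8 or NK markers summed to 94.7 to 121 and 56.99 to 86.6 CPM, with 8 of 10 called higher, 1 (Prf1) called lower and Ncr1 at 0 in all libraries numbered 3. The sums of the 8 CD4 and Treg markers overlapped, at 5273 to 6366 and 4820 to 6321 CPM, with 4 of 8 called higher and 1 lower. Those of the 5 genes of naive or resting T cells met at the edge, at 3682 to 4231 and 4226 to 5226 CPM, with 2 of 5 called lower. The part of these transcripts in the proteasome values was not tested.

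The exchange of catalytic subunits was followed within each library as the log2 ratio of the immunoproteasome gene to its counterpart, per kb of exon length and with a prior count of 0.5, in 6 pairs of High and Low libraries of the same genotype and number. The Psmb8 to Psmb5 ratio stayed between 1.84 and 2.20 in all libraries, and High minus Low was 0.024 ± 0.028 (SD, n = 6 pairs, exact two-sided sign-flip permutation p = 0.156). The Psmb9 to Psmb6 ratio lay between -0.55 and 0.012 and was lower in High in 5 of 6 pairs, by -0.19 ± 0.14 (exact permutation p = 0.0625). The Psmb10 to Psmb7 ratio lay between 2.15 and 2.76 and was lower in High in 6 of 6 pairs, by -0.071 ± 0.051 (exact permutation p = 0.0312, the smallest that 6 pairs allow). Adjusted over the 3 ratios, the permutation p-values were 0.156, 0.0938 and 0.0938, so none passed. TG minus WT averaged 0.042, 0.018 and 0.048 in the same order, with 4, 3 and 5 of 6 pairs higher in TG.

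**Figure D4:**
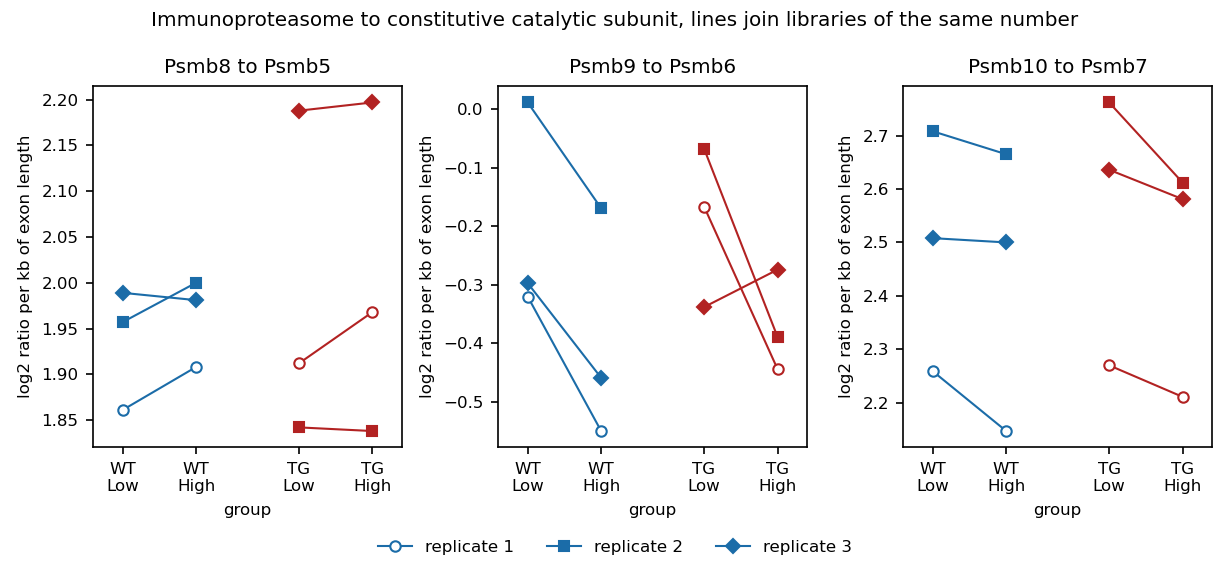
Log2 ratio per kb of exon length of each immunoproteasome gene to its constitutive counterpart in each library, with lines joining the Low and High libraries of the same genotype (WT blue, TG red) and replicate number. The axes do not start at 0 and differ between panels, and the libraries numbered 1 (open circles) lie at 2.15 to 2.27 for Psmb10 to Psmb7, under all the others at 2.50 to 2.76.

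The replicate number parted the third ratio more than the gate did. Psmb10 to Psmb7 was 2.15 to 2.27 in the 4 libraries numbered 1 and 2.50 to 2.76 in the other 8, a difference of means of -0.40. The Psmb8 to Psmb5 and Psmb9 to Psmb6 ratios overlapped between the numbers, with differences of means of -0.087 and -0.12. No test was made of these differences, since the Psmb7 counts in them are those of the comparison above.

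The other genes of the pathway did not move as a block. Of 14 tested genes for core assembly and accessory factors, 2 rose and 3 fell in replicate 1. Of all genes tested 16.8% rose and 10.7% fell in this comparison. Those that rose were Pomp, the chaperone that matures the core (log2 0.30, adjusted p = 0.000908 in edgeR), and Sem1, a small lid subunit outside the Psm names (log2 0.23, adjusted p = 0.0301). Those that fell were the proteasome-bound ubiquitin ligase Ube3c (log2 -0.30), the ubiquitin receptor Adrm1 (log2 -0.27) and Ecpas, which tethers core and regulatory particle (log2 -0.21). Of 12 genes that regulate the proteasome or supply ubiquitin, 0 rose and 2 fell, among them the transcription factor Nfe2l2 (log2 -0.24). Between the gates and between the genotypes, averaged over the other factor, none of these 26 genes passed in edgeR without the block. The shares of all genes were 0.518% and 0%. With the block, 1 of the 12 was called lower in CD25 High over both genotypes, Nfe2l2 (log2 -0.35, adjusted p = 0.00264 in edgeR), and 1 was called higher. Of all genes 5.88% were called there in either direction.

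MHC class I processing, to which the immunoproteasome contributes, was represented by 14 genes. In replicate 1, 2 rose and 6 fell, with a median log2 difference of -0.11, against 16.8% of all genes higher and 10.7% lower. The fall was largest for the interferon regulatory factor Irf1 (log2 -0.41, adjusted p = 3.35e-05 in edgeR) and for Nlrc5, the transactivator of class I genes (log2 -0.30, adjusted p = 0.00507). It was smaller for the peptide transporter gene Tap2 (log2 -0.15), the peptide editor gene Tapbpl (log2 -0.20) and the heavy chain genes H2-D1 (log2 -0.18) and H2-K1 (log2 -0.16). The endoplasmic reticulum chaperone genes Canx (log2 0.24) and Pdia3 (log2 0.17) rose. Tap1, which overlaps 5.79% of the exon length of Psmb9 on the opposite strand, did not pass (log2 -0.10, adjusted p = 0.226 in edgeR). In TG minus WT over both gates 13 of the 14 genes were positive, with a median of 0.10 and none called. Among the smallest unadjusted p-values in edgeR was that of B2m, the class I light chain gene (log2 0.18, adjusted p = 1.00). Between replicates 2 and 3, 14 of 14 were positive and 3 were called, among them Irf1 and B2m, against 12.4% of all genes called in either direction.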

How the data were processed

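RNA was extracted from the sorted cells, and cDNA was made and amplified with the SMARTer Ultra Low kit, per the labels' protocols. The series' design text names Nextera XT libraries, a chemistry that does not keep the strand. The deposited values are whole-number read counts per Ensembl gene without normalization. Per the submitters' processing notes, the tools were CASAVA 1.8.2, STAR 2.4 as well as featureCounts 1.4.6, on build GRCm38, with settings not given in the sources used here. Gene names, positions and lengths came from GENCODE vM21 of the same build.

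Counts were tested with edgeR 4.0.16 in R 4.3.3 (TMM scaling, filterByExpr with a minimum count of 10, robust quasi-likelihood fits over the 12 libraries, Benjamini-Hochberg adjustment over 11766 genes, threshold 0.05). These genes held 99.96% of the counts. Gate and genotype were fitted with the 4 groups as levels, and the replicate number was added as a factor to compare the numbers. Same-numbered libraries correlated in all 18 pairs, and 12 of 12 libraries matched best with their own number, so the fit with the number as a block is given where it moved a count of calls. The pairing comes from the data, not from the labels. Libraries of a group differed beyond counting noise, with a chi-square per degree of freedom of 22.0 to 50.7. DESeq2 1.42.0 was an alternative. Reads carry no molecular identifiers, so intervals rest on the spread between libraries.

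The genes, roles and lists were chosen with earlier results of these data known. Values in every library are given for the catalytic subunits, the activators, the inhibitor and, in each role, the gene that differed most in replicate 1. Of the pathway genes, those called in replicate 1 or with the smallest p are named. Single pathway genes that the rule would name are not reported here. Of 15 core assembly genes listed, 14 were in the table. A protein-coding relative, Psme2b, was not analysed here.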

Additional observations from a re-analysis of the deposited data

How the results depend on the processing

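No proteasome gene was called between gates or genotypes under any of the alternatives run: the replicate block, DESeq2 or its size factors, no filter on low counts, the libraries numbered 1 left out with and without the block, and each library left out in turn, the last also with the block (chosen after seeing the data). The number of genes of the set higher in replicate 1 (12) ran from 6 to 18 when 1 library was left out, and the number lower in replicate 2 than in replicate 3 (1) from 0 to 2. For Psmd8 the call was lost without the filter (log2 0.16, adjusted p at the threshold in edgeR). Adding the counts of the copy Gm8394 to Psma5, also chosen after seeing the data, left it at 0.44. The level ratios moved with the length used: 14.1 and 8.14 for Psmb8 over Psmb5, 1.74 and 0.945 for Psmb9 over Psmb6, and 2.84 and 2.47 for Psmb10 over Psmb7, by coding and by principal transcript length. Of the 10 highest genes per kb, 6 were shared under coding length. The replicate block changed no call of a proteasome gene at the adjusted threshold, with 0 called between gates and genotypes in each fit, as in the fit without it. Depth was lowest in TG High replicate 2, and without it the count of genes higher in replicate 1 was 18, the highest of these.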
